A study of Mus musculus with 12 samples.

Results

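Hepatic ischemia-reperfusion was compared with sham operation in the livers of mice on a normal diet, from 6 of the 12 liver RNA libraries of the series. The 3 ND-IRI libraries came from wild-type (WT) mice kept for 4 months on the normal diet (ND), in which the branches of the hepatic pedicle to the left and middle lobes were tied off for 1 h and liver was taken after 6 h of reperfusion. The 3 ND-Sham libraries came from WT mice on the same diet that had the same operation with no branch ligated. Poly(A) RNA was sequenced, and the labels used here do not say which lobe was taken, nor strain or age. Of 25947 gene entries, the 13364 with at least 1 TPM (the authors' unit, a length-normalized level with the same total in each library) in at least 3 of the 12 libraries were tested. The other 6 libraries, from HFD-IRI and HFD-Sham livers after a high-fat diet (HFD), entered the shared estimate of spread and the test of the difference between the diets. The labels name separate samples but not separate animals, so each p-value is set against a spread between samples that could be technical.

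Clamping deprives part of the liver of oxygen and nutrients, and restoring flow adds oxidative stress and exposes the tissue to blood leukocytes. Dying cells release signals that Kupffer cells and the sinusoidal endothelium answer with cytokines and chemokines, while hepatocytes start the acute phase response and stress programmes. Hepatocytes also carry out bile acid synthesis, drug and fatty acid oxidation, nitrogen disposal and most plasma protein production, under nuclear receptors and a circadian clock.

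The liver label was checked against markers and sex-linked transcripts. Albumin (Alb) was listed at 87107, 72971 and 63881 TPM in ND-IRI livers, against 66363, 83679.6 and 82718 TPM in ND-Sham livers, a difference that did not pass. The Alb difference, -0.06 on the log2 scale, did not pass (SE 0.173, adjusted p = 0.8). The male-specific transcript Ddx3y was between 35.9 and 66.9 TPM and the female-specific Xist at most 0.04 TPM in the 6 libraries, so all 6 carried male transcripts, while the labels used here state no sex. On the first principal component, with 71.8% of the variance, the ND-IRI libraries had scores of 39.5, 55.3 and 57.4 and the ND-Sham libraries -45.8, -57.3 and -49.0. The second, with 14.8%, set ND-IRI 1 (-31.7) apart from ND-IRI 2 and 3 (11.5 and 12.4) and ND-Sham 1 (38.2) apart from ND-Sham 2 and 3 (-18.7 and -11.8). ND-Sham 1 also held 11.6 TPM of the adipocyte hormone Adipoq, against at most 0.23 TPM in the other 5 libraries, and 4.09 TPM of the B cell gene Ms4a1, against at most 0.19 TPM. List counts of 3 or more that moved by over 1.5 times when these or other single libraries were left out are given below with the new count, while counts of 1 or 2 members often changed by 1 and are less firm. Depth is unknown for TPM, so no counting interval can be given.

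In all, 4035 genes (30.2% of those tested) were higher and 2213 (16.6%) were lower in ND-IRI livers, at an adjusted p under 0.05 in limma's moderated test on log2(TPM + 1), two-sided with Benjamini-Hochberg adjustment. Fold changes are ND-IRI minus ND-Sham on this scale, where the added 1 TPM shrinks the differences of low genes. Of these genes, 1827 were higher and 696 lower by at least 1 on the log2 scale. The median over all tested genes was 0.16. Median-ratio scaling moved that median to 0.00, with 3477 genes higher and 3269 lower, and quantile normalization to -0.05, with 3180 higher and 3860 lower. No gene called in the main test was called in the opposite direction under either scaling. Without ND-IRI 1 and ND-Sham 1, 5342 genes were higher and 1794 lower. Of the tested genes, 6863 had 3 ND-IRI values all above or all below the 3 ND-Sham values. Every called gene given below with its values was among them, except Cxcl13 and Myc. That follows in part from the choice of genes. No overlap was required for the largest changes, and 47 genes were chosen after their values were seen. The called genes Tuba8 and Ccne1, picked by the same rule but given without values, overlapped. For 1 gene alone, the exact permutation p over 3 and 3 libraries is at least 0.1.

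The 2 directions differed in how abundant the genes were in sham livers. The called-higher genes took 22, 25.7 and 24.3% of all TPM in ND-IRI libraries, against 10, 8.78 and 9.53% in ND-Sham libraries. The called-lower genes took 20.5, 18.1 and 18.6% in ND-IRI libraries, against 33.8, 33.7 and 34.6% in ND-Sham libraries. Genes called higher had a median of 5.83 TPM in ND-Sham livers and genes called lower one of 18.6 TPM. Of the 1005 tested genes at 100 TPM or more in ND-Sham livers, 442 (44%) were lower and 133 (13.2%) higher. The largest single gains were those of the fibrinogen chain genes Fga, Fgg and Fgb, which rose by 9149, 9031 and 6919 TPM on average. The largest losses were those of the ethanol-metabolizing cytochrome Cyp2e1, which fell by 9162 TPM, and the lipoprotein gene Apoa1, which fell by 5496 TPM.

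**Figure D1:**
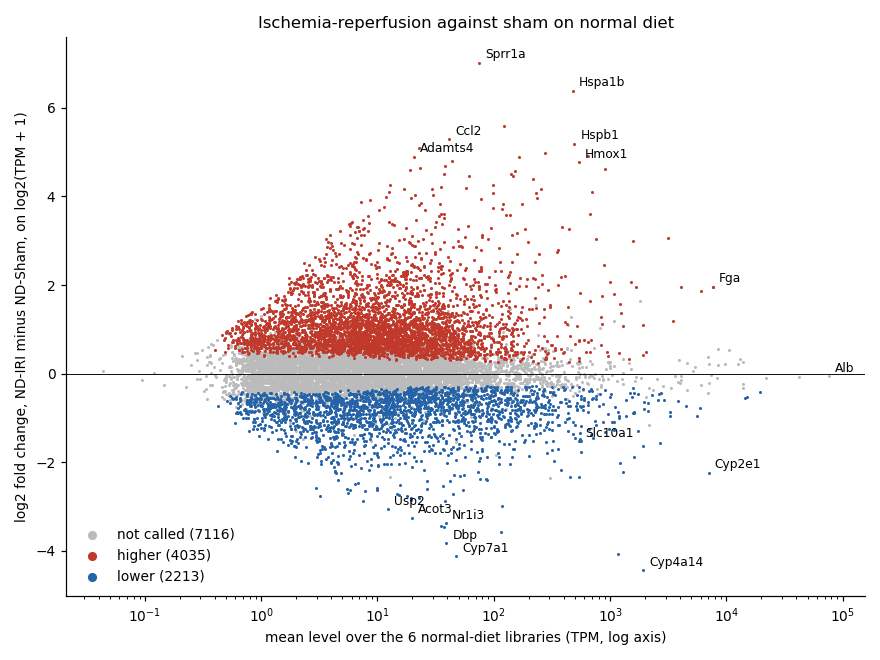
Log2 fold change (ND-IRI minus ND-Sham, on log2(TPM + 1)) against the mean level over the 6 normal-diet libraries (TPM, log axis), 1 point per tested gene, coloured by call at an adjusted p under 0.05. The 4035 higher genes reach their largest changes at low and middle levels (Sprr1a, 7.02), and at the most abundant end Cyp2e1 (-2.24) and Fga (1.96) stand apart from Alb (-0.06).

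Chemokines, which draw leukocytes into tissue, were among the transcripts with the largest differences. Of the 28 tested members of the chemokine and receptor list, 19 were higher and 2 lower, a share of higher calls to be read against 30.2% of all tested genes. The list's median was 1.76, against 0.16 for all tested genes. This list and those below were chosen with earlier results of these data known. Their shares set against all genes are therefore description and no independent test. The monocyte chemoattractant Ccl2 was at 77, 74.9 and 92.1 TPM in ND-IRI livers, against 0.58, 1.51 and 1.3 TPM in ND-Sham livers. Its neighbour Ccl7, with like activity, was at 46.8, 41.6 and 47.2 TPM in ND-IRI livers, against 0.71, 0.13 and 0.26 TPM in ND-Sham livers. Each ND-IRI library was many times above every ND-Sham library for both genes (Ccl2 log2 fold change 5.29, SE 0.509, adjusted p = 1.35e-05; Ccl7 log2 fold change 5.1, SE 0.476, adjusted p = 1.13e-05). The neutrophil chemoattractant Cxcl1 was at 299, 375 and 312 TPM in ND-IRI livers, against 23.1, 17.7 and 25.5 TPM in ND-Sham livers. Cxcl1 differed by 3.84 on the log2 scale (SE 0.457, adjusted p = 5.18e-05). Cxcl2, a second ligand of the neutrophil receptor Cxcr2, was at 20.0, 29.7 and 63.4 TPM in ND-IRI livers, against 0.18, 2.01 and 2.05 TPM in ND-Sham livers. The groups did not overlap, and within them ND-IRI 3 was the highest and ND-Sham 1 the lowest library (log2 fold change 3.97, SE 0.417, adjusted p = 2.31e-05). Cxcl3 was at 0.74, 3.72 and 7.21 TPM in ND-IRI livers and was listed at 0 in the 3 ND-Sham libraries (adjusted p = 0.00156). The interferon-inducible Cxcl10 was at 76.1, 55.1 and 63.1 TPM in ND-IRI livers, against 4.3, 3.55 and 3.06 TPM in ND-Sham livers. Cxcl10 differed by 3.82 on the log2 scale (SE 0.274, adjusted p = 2.12e-06). In the other direction, the B cell attractant Cxcl13 was at 2.32, 3.42 and 4.52 TPM in ND-IRI livers, against 26.3, 3.96 and 16.2 TPM in ND-Sham livers, and ND-IRI 3 lay above ND-Sham 2. Cxcl13 differed by -1.62 on the log2 scale (SE 0.539, adjusted p = 0.0273). That call was lost without ND-IRI 1, ND-IRI 2 or ND-Sham 3, and without ND-Sham 1, the library with the raised B cell transcripts (log2 fold change -1.09, adjusted p = 0.104).

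The promoters of several of these genes hold the sequence that NF-kB, the main inflammatory transcription factor, recognizes. RefSeq promoter windows (GRCm38.p6, not the authors' build GRCm39) were searched on both strands over the 250 bases before each start for the kappa-B letters GGGANNTTCC, which 1.36% of 27025 genes with a window hold. The share was 1.5% among tested genes with a window, 1.9% among those called higher and 1.23% among those called lower. Windows were at hand for 23 of the 31 chemokine list genes and 18 of the 23 NF-kB list genes, too few for a share over either list, so that check is void. The list genes that hold the letters are Cxcl1, Cxcl2, Cxcl3, Cxcl10, Nfkb2, Nfkbia and Cyld, and of these Cyld was not called. Below are the last 150 bases before the start of 3 chemokine genes and of Nfkbia, which encodes the inhibitor that NF-kB itself induces. Capitals mark the kappa-B match, from 71 (Cxcl1), 97 (Cxcl2), 73 (Cxcl3) and 29 (Nfkbia) bases before the start. The chemokine stretches hold overlapping matches on both strands.
Cxcl1, chr5:90891095-90891244, plus strand: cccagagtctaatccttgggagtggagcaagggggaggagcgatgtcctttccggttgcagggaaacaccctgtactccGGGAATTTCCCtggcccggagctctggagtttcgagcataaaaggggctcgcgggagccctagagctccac
Cxcl2, chr5:90903749-90903898, plus strand: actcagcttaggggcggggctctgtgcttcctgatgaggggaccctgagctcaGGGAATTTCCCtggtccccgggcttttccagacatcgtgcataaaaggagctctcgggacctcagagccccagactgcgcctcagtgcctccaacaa
Cxcl3, chr5:90785951-90786100, plus strand: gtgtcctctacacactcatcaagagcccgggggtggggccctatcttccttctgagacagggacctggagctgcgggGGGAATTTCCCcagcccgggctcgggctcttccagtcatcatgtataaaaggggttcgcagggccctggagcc
Nfkbia, chr12:55492648-55492797, minus strand: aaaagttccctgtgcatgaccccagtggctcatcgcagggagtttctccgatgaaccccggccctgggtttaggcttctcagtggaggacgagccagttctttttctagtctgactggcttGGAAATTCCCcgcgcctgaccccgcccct
The 3 chemokine promoters carry the same 11 capital letters. A match describes the window only and shows no binding.

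NF-kB pathway genes themselves were higher. Of 21 tested members, 17 were higher and 0 lower (median 1.22), and the 4 not called were Ikbkb, Chuk and Ikbkg, which encode the kinase complex that releases NF-kB, and the deubiquitinase Cyld. Bcl3, an inhibitor family member that binds nuclear NF-kB subunits, was at 129.8, 147 and 151 TPM in ND-IRI livers, against 19.1, 12.6 and 16.5 TPM in ND-Sham livers. Bcl3 differed by 3.09 on the log2 scale (SE 0.197, adjusted p = 1.1e-06). Tnfaip3, which encodes the ubiquitin-editing inhibitor A20, was at 38.8, 22.1 and 22.8 TPM in ND-IRI livers, against 2.35, 2.16 and 2.97 TPM in ND-Sham livers. Tnfaip3 differed by 3.01 on the log2 scale (SE 0.302, adjusted p = 1.73e-05). Nfkbiz, an inducible nuclear member, was at 78.3, 39.4 and 48.9 TPM in ND-IRI livers, against 12.4, 9.86 and 14.6 TPM in ND-Sham livers. Nfkbiz differed by 2.04 on the log2 scale (SE 0.241, adjusted p = 4.84e-05). Nfkbia was at 185, 116 and 140.1 TPM in ND-IRI livers, against 73.8, 64.4 and 61.8 TPM in ND-Sham livers, a smaller difference with no overlap (log2 fold change 1.11, SE 0.162, adjusted p = 0.000216).

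Upstream, 11 of 19 tested Toll-like receptor and adaptor genes were higher and 2 lower (median 0.75). Cd14, which presents bacterial lipopolysaccharide to its receptor, was at 299, 311 and 262 TPM in ND-IRI livers, against 3.57, 18.5 and 19.7 TPM in ND-Sham livers. ND-Sham 1 was the lowest sham library for it, and every ND-IRI library was far above all of them (log2 fold change 4.57, SE 0.538, adjusted p = 4.81e-05). Ly96, the partner of Tlr4 in that complex, was at 18.1, 25.9 and 37.7 TPM in ND-IRI livers, against 5.49, 5.15 and 4.05 TPM in ND-Sham livers. Ly96 differed by 2.21 on the log2 scale (SE 0.231, adjusted p = 2.25e-05). Tlr12, a mouse receptor for a parasite protein, was lower, at 0.84, 0.73 and 0.73 TPM in ND-IRI livers, against 12.8, 5.67 and 5.1 TPM in ND-Sham livers. Tlr12 differed by -2.22 on the log2 scale (SE 0.327, adjusted p = 0.00022). Of 7 CCCH zinc finger and roquin genes that promote the decay of inflammatory mRNAs, 5 were higher and 0 lower (median 0.75). Zfp36l1 was at 564, 351 and 293 TPM in ND-IRI livers, against 134, 116 and 175 TPM in ND-Sham livers (log2 fold change 1.46, SE 0.266, adjusted p = 0.000911).

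Among interleukin 1 family genes, 7 of 11 were higher and 1 lower (median 2.52). The receptor antagonist Il1rn, which blocks interleukin 1 signalling, was at 61.1, 66.8 and 41 TPM in ND-IRI livers, against 1.77, 2.63 and 2.05 TPM in ND-Sham livers. Il1rn differed by 4.16 on the log2 scale (SE 0.241, adjusted p = 6.64e-07). The cytokine Il1b was at 33.6, 40.7 and 50.9 TPM in ND-IRI livers, against 4.83, 4.72 and 8.66 TPM in ND-Sham livers. Il1b differed by 2.62 on the log2 scale (SE 0.511, adjusted p = 0.00142). Il33, an alarmin stored in nuclei of stromal and epithelial cells, was at 24.4, 57.8 and 91 TPM in ND-IRI livers, against 4.91, 1.23 and 1.39 TPM in ND-Sham livers, with ND-IRI 1 the lowest ND-IRI library. Il33 differed by 4.03 on the log2 scale (SE 0.446, adjusted p = 3.15e-05). Il1r2, a decoy receptor that neutrophils also carry, was at 7.57, 17.2 and 23.9 TPM in ND-IRI livers, against 0.1, 0.48 and 0.44 TPM in ND-Sham livers. Il1r2 differed by 3.56 on the log2 scale (SE 0.356, adjusted p = 1.66e-05). Il18 moved the other way, at 16.5, 17.8 and 14.4 TPM in ND-IRI livers, against 31.5, 30.7 and 23.8 TPM in ND-Sham livers. Il18 differed by -0.78 on the log2 scale (SE 0.203, adjusted p = 0.008). In the interleukin 6 list, 15 of 19 were higher and 0 lower (median 1.68). Il6 itself was at 3.83, 1.37 and 5.06 TPM in ND-IRI livers, against 0.08, 0.25 and 0.22 TPM in ND-Sham livers. Il6 differed by 1.8 on the log2 scale (SE 0.307, adjusted p = 0.000602). Its relatives Lif and Osm were at 5.05, 5.48 and 6.54 TPM and 3.96, 4.33 and 6.91 TPM in ND-IRI livers, against at most 0.13 and 0.14 TPM in ND-Sham livers (Lif log2 fold change 2.64, SE 0.179, adjusted p = 1.74e-06; Osm log2 fold change 2.45, SE 0.364, adjusted p = 0.000236). Socs3, the feedback inhibitor that STAT3 induces, was at 415, 229.6 and 219 TPM in ND-IRI livers, against 24.1, 22.8 and 47.7 TPM in ND-Sham livers. Socs3 differed by 3.17 on the log2 scale (SE 0.305, adjusted p = 1.37e-05). The receptor genes Il6ra and Lifr were among the 4 not called.

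Interferon-induced genes were called higher about as often as all genes. Of 20 tested, 6 were higher, near the 30.2% of all genes, and 1 was lower (median 0.58). ND-Sham 1 was the highest sham library for 20 of 20, against 68.1% of all tested genes, and 11 were called higher without it. The guanylate-binding protein gene Gbp2 was at 17.3, 16.8 and 18.6 TPM in ND-IRI livers, against 8.35, 4.79 and 2.15 TPM in ND-Sham livers (log2 fold change 1.74, SE 0.342, adjusted p = 0.00146), and Usp18, which restrains interferon signalling, at 3.97, 5.12 and 5.87 TPM in ND-IRI livers, against 17.8, 14.2 and 8.73 TPM in ND-Sham livers (log2 fold change -1.25, SE 0.274, adjusted p = 0.00301).

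Transcripts of recruited and resident cells moved in different directions. In bulk tissue, more or fewer cells of a type and more or less RNA per cell cannot be told apart. The 16 neutrophil markers summed to 245.5, 661.6 and 595.9 TPM in ND-IRI livers, against 24.1, 28 and 21.6 TPM in ND-Sham livers. Of the 11 tested, 10 were higher and 0 lower (median 2.94). S100a9 and S100a8, subunits of calprotectin, were at 126, 374 and 313 and 50.2, 149.7 and 132 TPM in ND-IRI livers, against 10.2, 10.9 and 8.52 and 4.79, 5.83 and 3.36 TPM in ND-Sham livers. Both were called (S100a9 log2 fold change 4.51, SE 0.445, adjusted p = 1.57e-05; S100a8 log2 fold change 4.18, SE 0.414, adjusted p = 1.59e-05). Mmp8, the neutrophil collagenase, was at 8.77, 19.1 and 23.2 TPM in ND-IRI livers, against 0.04, 0.17 and 0.13 TPM in ND-Sham livers (log2 fold change 3.92, SE 0.364, adjusted p = 1.09e-05), and the neutrophil surface gene Ly6g at 0.53, 1.45 and 2.00 TPM in ND-IRI livers, against 0, 0.11 and 0.11 TPM in ND-Sham livers. Ly6g differed by 1.06 on the log2 scale (SE 0.259, adjusted p = 0.00555). The 5 untested members were Camp, Ltf, Elane, Mpo and Prtn3, which encode granule proteins made mostly in immature bone marrow cells. None of them exceeded 1.13 TPM in an ND-IRI library or 1.70 TPM in an ND-Sham library. Elane was at 0, 0.09 and 0.11 TPM in ND-IRI livers, against 0.68, 0.41 and 0.43 TPM in ND-Sham livers. Mpo was at 0, 0.02 and 0 TPM in ND-IRI livers, against 0.17, 0.18 and 0.12 TPM in ND-Sham livers. The groups overlapped for Camp, Ltf and Prtn3. With no filter on low values, 2 members of the list were called lower. ND-IRI 1 was the lowest ND-IRI library for 11 of 11 tested members, against 60.9% of all tested genes.

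Monocyte and recruited macrophage markers summed to 174.3, 275.2 and 324.6 TPM in ND-IRI livers, against 154.9, 74.4 and 100.5 TPM in ND-Sham livers, and 7 of 12 were higher and 0 lower (median 1.62). The largest change of the list was that of Thbs1, at 69.4, 53.9 and 93.4 TPM in ND-IRI livers, against 1.13, 1.98 and 3.98 TPM in ND-Sham livers. Thbs1 differed by 4.5 on the log2 scale (SE 0.408, adjusted p = 9.12e-06). Its level in ND-IRI 1 exceeded the gap between the ND-IRI 1 and ND-Sham 1 sums, so the separation of the sums leans on this gene. Chil3, a chitinase-like protein of inflammatory monocytes, was at 6.18, 15.3 and 28 TPM in ND-IRI livers, against 0.47, 0.62 and 0.19 TPM in ND-Sham livers. Chil3 differed by 3.41 on the log2 scale (SE 0.455, adjusted p = 0.000111). F13a1, a coagulation factor subunit that monocytes and macrophages make, was at 4.56, 16.5 and 19.1 TPM in ND-IRI livers, against 1.18, 0.08 and 0.05 TPM in ND-Sham livers. F13a1 differed by 3.21 on the log2 scale (SE 0.48, adjusted p = 0.000246). Lyz2, Cx3cr1, Ly6c2, Trem2 and Gpnmb were not called. Leukocytes express several members of the chemokine, interleukin and protease lists, and the part of these cells in those results was not tested. Markers of resident Kupffer cells instead summed to 164.3, 284.8 and 292.8 TPM in ND-IRI livers, against 380.5, 377.3 and 390.3 TPM in ND-Sham livers, with no overlap. Of 13 tested, 4 were lower and 0 higher (median -0.48), against 16.6% lower among all genes. The count was 1 without ND-IRI 1, the lowest ND-IRI library for 12 of the 13, 2 without any 1 of the sham libraries, and 7 under either scaling. Vsig4, a complement receptor of Kupffer cells, was at 5.87, 12.2 and 11.8 TPM in ND-IRI livers, against 23.3, 27 and 26 TPM in ND-Sham livers. Vsig4 differed by -1.33 on the log2 scale (SE 0.263, adjusted p = 0.00156). The lectin Clec4f, specific to Kupffer cells in mice, was at 21.1, 38.2 and 37.6 TPM in ND-IRI livers, against 68, 68.8 and 60.9 TPM in ND-Sham livers (log2 fold change -1.05, SE 0.312, adjusted p = 0.0158), a call lost without ND-IRI 1 (log2 fold change -0.78, adjusted p = 0.0579).

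Lymphoid markers were highest in ND-Sham 1. They summed to 5.89, 6.44 and 7.20 TPM in ND-IRI livers, against 59.6, 11 and 8.21 TPM in ND-Sham livers. The 3 of 6 called lower included the B cell receptor genes Cd79a and Cd79b, and Cd79a was at 0.75, 0.47 and 0.08 TPM in ND-IRI livers, against 18.3, 2.29 and 1.89 TPM in ND-Sham livers (log2 fold change -2.02, SE 0.582, adjusted p = 0.0139), lost without ND-IRI 3 (adjusted p = 0.0517). The count was 1 without ND-IRI 2 or ND-IRI 3, and the list median was -0.93. Among all genes 16.6% were lower. Red blood cell and platelet markers were higher, 8 of 8 tested (median 2.21). Their sum was 554.7, 501.2 and 1569 TPM in ND-IRI livers, against 113.1, 133.8 and 103.1 TPM in ND-Sham livers. The adult globin gene Hbb-bs was at 252, 227 and 844 TPM in ND-IRI livers, against 19.7, 25.4 and 18.1 TPM in ND-Sham livers, with ND-IRI 3 far above the others. Hbb-bs differed by 4.07 on the log2 scale (SE 0.556, adjusted p = 0.000131). Without ND-IRI 3, 4 of the 8 remained called, and globin copies can share reads. The adipocyte sum was 100 TPM in ND-Sham 1 and at most 6.33 TPM in the other sham libraries. In ND-IRI livers it was 35.2, 43.1 and 32.4 TPM, mostly from Fabp4, the 1 of 2 tested members called, a fatty acid carrier of adipocytes, macrophages and endothelium, at 34.1, 38 and 29.8 TPM in ND-IRI livers, against 15.8, 2.73 and 3.3 TPM in ND-Sham livers. Fabp4 differed by 2.43 on the log2 scale (SE 0.512, adjusted p = 0.00228). Cfd, an adipocyte protease gene, was not called (log2 fold change -1.24, and 0.29 without ND-Sham 1), and Adipoq was at most 0.14 TPM in ND-IRI livers.

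**Figure D2:**
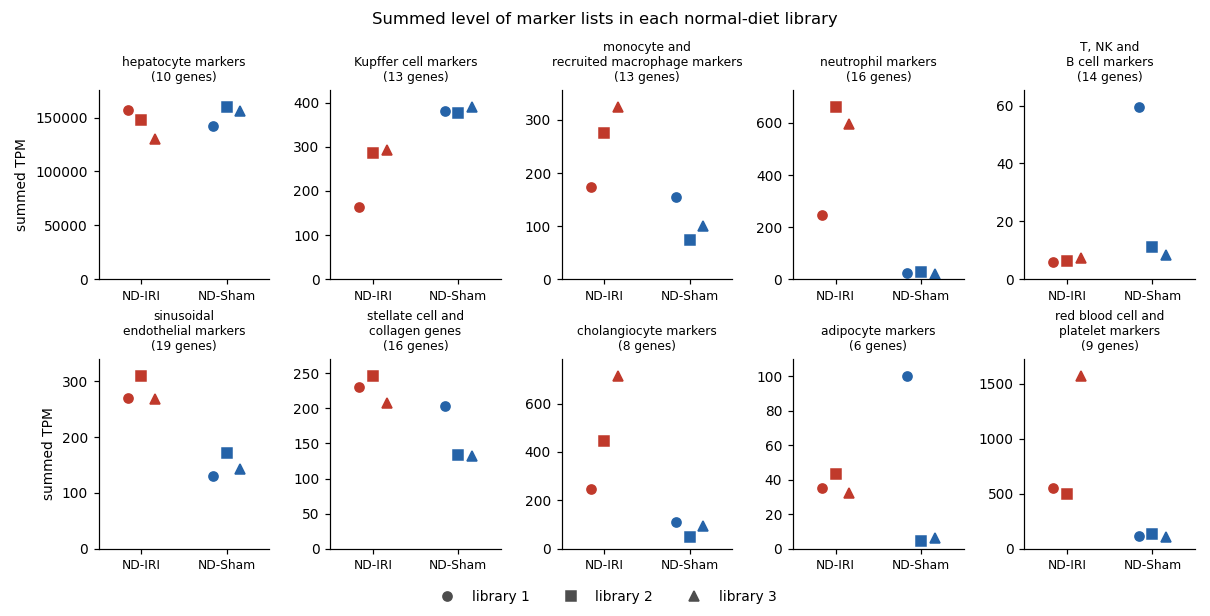
Summed level (TPM, linear axes from 0) of 10 marker lists in each ND-IRI (red) and ND-Sham (blue) library, with the library number by symbol. Neutrophil sums separate the groups (at least 245.5 TPM in ND-IRI, against at most 28 TPM in ND-Sham), Kupffer cell sums run the other way, and the lymphoid and adipocyte panels show ND-Sham 1 alone high among the sham libraries.

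Endothelial genes were higher more often than lower. Of 18 sinusoidal markers, 9 were higher and 1 lower (median 0.46), and the summed level was 269.9, 308.6 and 267.7 TPM in ND-IRI livers, against 130.3, 171.8 and 143.6 TPM in ND-Sham livers. Lyve1, a hyaluronan receptor of sinusoidal and lymphatic endothelium, was at 78.1, 67.8 and 55.6 TPM in ND-IRI livers, against 5.18, 6.55 and 12.4 TPM in ND-Sham livers. Lyve1 differed by 2.98 on the log2 scale (SE 0.242, adjusted p = 4.51e-06). The junction cadherin Cdh5 was at 40.5, 45.1 and 44.5 TPM in ND-IRI livers, against 6.65, 7.82 and 7.81 TPM in ND-Sham livers. Cdh5 differed by 2.4 on the log2 scale (SE 0.164, adjusted p = 1.76e-06). Kdr, the main receptor for vascular endothelial growth factor, was lower, at 3.52, 4.83 and 3.55 TPM in ND-IRI livers, against 6.85, 10.6 and 7.78 TPM in ND-Sham livers (log2 fold change -0.91, SE 0.228, adjusted p = 0.00637), and Stab2, Clec4g and Oit3 were not called. Endothelial activation and coagulation control genes were higher in 10 of 12 cases and lower in 0 (median 1.82). The leukocyte-capturing selectins Sele and Selp were at 18.9, 6.89 and 13.1 TPM and 12.7, 8.29 and 12.8 TPM in ND-IRI livers, against at most 0.68 and 1.51 TPM in ND-Sham livers (Sele log2 fold change 3.3, SE 0.363, adjusted p = 3.06e-05; Selp log2 fold change 2.4, SE 0.248, adjusted p = 2.08e-05). The adhesion molecule Icam1 was at 55.4, 42.8 and 41 TPM in ND-IRI livers, against 10.8, 8.52 and 11.3 TPM in ND-Sham livers. Icam1 differed by 2.08 on the log2 scale (SE 0.213, adjusted p = 2e-05). The anticoagulant pair thrombomodulin (Thbd) and endothelial protein C receptor (Procr) was higher too. Procr was at 26.9, 29.5 and 41.7 TPM in ND-IRI livers, against 1.4, 0.65 and 0.57 TPM in ND-Sham livers (log2 fold change 4.17, SE 0.261, adjusted p = 1.03e-06), and Thbd at 50.1, 71.5 and 69.6 TPM in ND-IRI livers, against 6.13, 4.35 and 3.3 TPM in ND-Sham livers. Thbd differed by 3.55 on the log2 scale (SE 0.248, adjusted p = 1.95e-06). Angpt2, which destabilizes vessels, was at 16.6, 11.9 and 11.1 TPM in ND-IRI livers, against 0.44, 0.27 and 0.49 TPM in ND-Sham livers (log2 fold change 3.32, SE 0.225, adjusted p = 1.74e-06).

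Among stellate cell and collagen genes, 4 of 16 were higher and 1 lower (median 0.1), under the share of all genes. The higher ones included basement membrane collagen, with Col4a1 at 48.6, 65.4 and 54.9 TPM in ND-IRI livers, against 8.96, 10.5 and 11.8 TPM in ND-Sham livers (log2 fold change 2.32, SE 0.228, adjusted p = 1.51e-05), and the hepatocyte mitogen Hgf, at 9.43, 11 and 6.74 TPM in ND-IRI livers, against 1.43, 2.17 and 2.42 TPM in ND-Sham livers. Hgf differed by 1.73 on the log2 scale (SE 0.194, adjusted p = 3.34e-05). The fibrillar collagen genes Col1a1, Col1a2 and Col3a1 and the contractile gene Acta2 were not called.

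Proteases that remodel matrix and dissolve clots rose with their inhibitors, 15 of 17 higher and 0 lower (median 2.15). Adamts4, an aggrecan-cleaving protease, was at 64.5, 30.2 and 28.2 TPM in ND-IRI livers, against 0.16, 0.27 and 0.57 TPM in ND-Sham livers. Adamts4 differed by 4.89 on the log2 scale (SE 0.281, adjusted p = 6.5e-07). Timp1, an inhibitor of matrix metalloproteases, was at 25.3, 31.3 and 19.3 TPM in ND-IRI livers, against 0.64, 0.11 and 0.36 TPM in ND-Sham livers. Timp1 differed by 4.26 on the log2 scale (SE 0.367, adjusted p = 6.53e-06). Of the keratin, annexin and injured epithelium list, 12 of 13 were higher and 0 lower (median 1.76). Its leading gene had the largest rise of all called genes: Sprr1a, which encodes a cornified envelope precursor induced in stressed epithelium, was at 74.3, 135 and 238 TPM in ND-IRI livers, against 0, 0.13 and 0 TPM in ND-Sham livers. Sprr1a differed by 7.02 on the log2 scale (SE 0.682, adjusted p = 1.46e-05). Krt8, a keratin of hepatocytes and bile duct cells, was at 1136, 1707 and 2026 TPM in ND-IRI livers, against 306, 489 and 361 TPM in ND-Sham livers. Krt8 differed by 2.06 on the log2 scale (SE 0.309, adjusted p = 0.000252). Of the 7 tested cholangiocyte markers, 6 were higher and 0 lower (median 1.76). Among them were Sox9, a bile duct and progenitor transcription factor, at 27.9, 28.2 and 45.1 TPM in ND-IRI livers, against 3.54, 2.94 and 3.53 TPM in ND-Sham livers (log2 fold change 2.97, SE 0.243, adjusted p = 4.72e-06), and Spp1, osteopontin, at 164, 381 and 622 TPM in ND-IRI livers, against 77.6, 35 and 71.7 TPM in ND-Sham livers. Spp1 differed by 2.53 on the log2 scale (SE 0.59, adjusted p = 0.0043). The summed cholangiocyte level was 245.1, 443.9 and 712.4 TPM in ND-IRI livers, against 109.1, 49.7 and 93.4 TPM in ND-Sham livers. Spp1 alone made up most of this sum in every library. Krt7, Krt19, Epcam, Sox9 and Spp1 were also counted in the injured epithelium list, so the counts of these lists are not separate results.

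The cytoskeleton changed in the same direction, with 15 of 21 actin-related genes higher and 0 lower (median 1.15), and 7 of 11 tubulins higher and 1 lower (median 1.36). Tubb6, a beta-tubulin, was at 71.7, 98 and 103 TPM in ND-IRI livers, against 9.86, 6.98 and 8.56 TPM in ND-Sham livers. Tubb6 differed by 3.27 on the log2 scale (SE 0.202, adjusted p = 1.03e-06). The tropomyosin gene Tpm4 was at 79.5, 62.6 and 67.4 TPM in ND-IRI livers, against 13.3, 14.9 and 14.2 TPM in ND-Sham livers. Tpm4 differed by 2.22 on the log2 scale (SE 0.146, adjusted p = 1.4e-06). Ccn1, a matrix protein gene that mechanical stress induces, was at 188, 82.7 and 136 TPM in ND-IRI livers, against 29, 15.6 and 12 TPM in ND-Sham livers. Ccn1 differed by 2.8 on the log2 scale (SE 0.561, adjusted p = 0.00168). Tubb2a depended on ND-Sham 1, at 339.7, 309 and 324 TPM in ND-IRI livers, against 31.2, 178 and 168 TPM in ND-Sham livers (adjusted p = 0.046, lost without any 1 of the ND-IRI libraries and without ND-Sham 1, at 0.174).

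Early-response transcription factors were higher. AP-1 and small Maf genes had 11 of 15 higher and 0 lower (median 1.81). Fos was at 284, 159 and 218 TPM in ND-IRI livers, against 7.96, 24.6 and 17.8 TPM in ND-Sham livers (log2 fold change 3.72, SE 0.58, adjusted p = 0.000322). Atf3 was at 621, 297 and 341 TPM in ND-IRI livers, against 2.25, 72.8 and 67.2 TPM in ND-Sham livers (log2 fold change 3.97, SE 0.933, adjusted p = 0.00446). For Atf3 the sham libraries themselves spread widely, ND-Sham 1 being at 2.25 TPM, and the groups still did not overlap. Fosl1, which is listed at 0 in ND-Sham 1, was at 4.19, 12.6 and 18.7 TPM in ND-IRI livers and at most 0.16 TPM in ND-Sham livers (log2 fold change 3.39, SE 0.432, adjusted p = 8.33e-05). ND-Sham 1 was the lowest sham library for 10 of the 15, against 11.2% of all tested genes, and ND-IRI 1 the highest ND-IRI library for 10 of the 15, against 24.4%. The phosphatases that switch off MAP kinases had 8 of 10 higher and 0 lower (median 1.48). Dusp5, a nuclear phosphatase for ERK, was at 32.2, 33.1 and 55.5 TPM in ND-IRI livers, against 1.19, 1.35 and 1.88 TPM in ND-Sham livers (log2 fold change 4.03, SE 0.237, adjusted p = 7.54e-07).

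Heat shock proteins and cochaperones, which refold damaged proteins, were higher in 20 of 23 cases and lower in 0 (median 1.5). Hspa1b and Hspa1a, near-identical copies of the inducible HSP70 gene that can share reads, were at 1615, 555 and 656 TPM and 410.2, 136 and 179 TPM in ND-IRI livers, against 2.61, 14 and 17.6 TPM and 0.45, 6.65 and 7.25 TPM in ND-Sham livers. Both were called (Hspa1b log2 fold change 6.39, SE 0.759, adjusted p = 5.15e-05; Hspa1a log2 fold change 5.58, SE 0.85, adjusted p = 0.000278). The small heat shock protein Hspb1 was at 1188, 740.2 and 956 TPM in ND-IRI livers, against 37.9, 15.2 and 26.7 TPM in ND-Sham livers. Hspb1 differed by 5.19 on the log2 scale (SE 0.319, adjusted p = 1.03e-06). Hsph1, a nucleotide exchange factor for HSP70, was at 509.8, 186 and 272 TPM in ND-IRI livers, against 9.55, 7.91 and 9.71 TPM in ND-Sham livers. Hsph1 differed by 4.89 on the log2 scale (SE 0.422, adjusted p = 6.54e-06). ND-IRI 1 was the highest ND-IRI library for 19 of 23 members, against 24.4% of all tested genes. Hspd1 and Hspe1, the mitochondrial chaperonin and its lid, were at 1467, 936 and 1104 TPM and 692, 326 and 353 TPM in ND-IRI livers, against 497, 516 and 559 TPM and 175, 134 and 133 TPM in ND-Sham livers (Hspd1 log2 fold change 1.13, SE 0.205, adjusted p = 0.000886; Hspe1 log2 fold change 1.55, SE 0.309, adjusted p = 0.00161).

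Hspd1 and Hspe1 lie head to head and share the stretch between their starts, shown here from each gene because both transcripts rose and both windows hold a heat shock element. The letters searched were GAANNTTCNNGAA, both strands, which 0.514% of genes with a window hold. Capitals mark overlapping matches, beginning 144 and 139 bases before the Hspd1 start and 89 and 84 bases before the Hspe1 start. The capitals are the same element read on opposite strands.
Hspd1, chr1:55087933-55088082, minus strand: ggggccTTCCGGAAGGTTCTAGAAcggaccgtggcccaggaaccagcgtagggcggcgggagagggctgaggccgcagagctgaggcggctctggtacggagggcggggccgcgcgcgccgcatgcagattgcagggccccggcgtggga
Hspe1, chr1:55087998-55088147, plus strand: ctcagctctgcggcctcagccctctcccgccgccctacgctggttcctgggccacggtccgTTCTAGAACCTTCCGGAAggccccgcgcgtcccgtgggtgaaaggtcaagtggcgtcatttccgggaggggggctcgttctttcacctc
Windows were at hand for 18 of 23 list genes, too few for a share over the list, and no other list gene with a window held these letters in this form.

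Other arms of protein quality control differed in extent. Endoplasmic reticulum chaperones and unfolded protein response genes were higher in 18 of 20 cases (median 0.94). The chaperone BiP (Hspa5) was at 1177, 1646 and 1727 TPM in ND-IRI livers, against 232, 275 and 316 TPM in ND-Sham livers (log2 fold change 2.45, SE 0.166, adjusted p = 1.74e-06), and Dnajb9, its cochaperone, at 267, 304 and 257 TPM in ND-IRI livers, against 45.3, 63.6 and 75.9 TPM in ND-Sham livers. Dnajb9 differed by 2.17 on the log2 scale (SE 0.164, adjusted p = 2.98e-06). ND-IRI 1 was the lowest ND-IRI library for 17 of the 20, the reverse of the heat shock genes. Herpud1, a component of endoplasmic reticulum degradation, was the single member called lower, at 271, 387 and 348 TPM in ND-IRI livers, against 405, 591 and 695 TPM in ND-Sham livers (log2 fold change -0.73, SE 0.221, adjusted p = 0.0178), and lost that call without ND-IRI 1 (adjusted p = 0.0612), ND-Sham 2 (0.0593) or ND-Sham 3 (0.0767). The cytosolic chaperonin and prefoldin had 8 of 14 higher and 0 lower (median 0.39). Of 31 proteasome subunits, 3 were higher, under the 30.2% of all genes, and 0 lower. The higher ones were the regulatory lid genes Psmd7, Psmd8 and Psmd11, and 7 were higher without ND-IRI 1. Under median-ratio scaling 6 subunits were called lower, where 3269 of all 13364 tested genes were. Under quantile normalization 4 subunits were called lower, where 3860 of all tested genes were. In both settings the share of subunits was under that of all genes.

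The integrated stress response, in which cells slow translation and induce amino acid genes, had 11 of 16 members higher and 1 lower (median 1.47). Ddit3, encoding the transcription factor CHOP, was at 77.1, 46.1 and 52 TPM in ND-IRI livers, against 8.99, 7.32 and 12.3 TPM in ND-Sham livers (log2 fold change 2.49, SE 0.327, adjusted p = 0.000101), and Ppp1r15a, encoding the phosphatase subunit that restores translation, at 212, 131 and 136 TPM in ND-IRI livers, against 13, 18.5 and 24.3 TPM in ND-Sham livers. Ppp1r15a differed by 3.04 on the log2 scale (SE 0.296, adjusted p = 1.46e-05). Chac1, a glutathione-degrading enzyme, was at 90.8, 36.6 and 39.3 TPM in ND-IRI livers, against 3.77, 6.06 and 12.7 TPM in ND-Sham livers. Chac1 differed by 2.74 on the log2 scale (SE 0.443, adjusted p = 0.000415). Antioxidant genes under NRF2 were higher in 12 of 17 cases and lower in 0 (median 0.9). Hmox1, heme oxygenase, was at 981, 943 and 1183 TPM in ND-IRI livers, against 17, 45.7 and 62.7 TPM in ND-Sham livers. Hmox1 differed by 4.77 on the log2 scale (SE 0.424, adjusted p = 8.05e-06). Gclc, the catalytic subunit of glutathione synthesis, was at 580.5, 1599 and 1908 TPM in ND-IRI livers, against 155, 126 and 165 TPM in ND-Sham livers (log2 fold change 3.03, SE 0.378, adjusted p = 7.17e-05), and Srxn1, sulfiredoxin, at 406, 742 and 965 TPM in ND-IRI livers, against 49.2, 85.7 and 69.5 TPM in ND-Sham livers. Srxn1 differed by 3.3 on the log2 scale (SE 0.329, adjusted p = 1.65e-05). Nqo1, often used as an NRF2 readout, did not follow, at 3.89, 13.2 and 8.26 TPM in ND-IRI livers, against 13, 17.7 and 10.6 TPM in ND-Sham livers (log2 fold change -0.75, SE 0.348, adjusted p = 0.097), with overlapping groups. Among other settings, it was called lower under both scalings (adjusted p = 0.0326 with median-ratio scaling and 0.0203 with quantile normalization) and without ND-IRI 2 (0.0212).

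Among metal handling genes, 7 of 16 were higher and 2 lower (median 0.41), against 30.2% and 16.6% of all genes. The zinc- and copper-binding metallothionein Mt1 was at 2328, 3508 and 2399 TPM in ND-IRI livers, against 141, 517 and 521 TPM in ND-Sham livers (log2 fold change 3.00, SE 0.433, adjusted p = 0.00019), and the iron exporter Slc40a1 was lower, at 19.2, 22.2 and 22.4 TPM in ND-IRI livers, against 48.5, 31.6 and 39.4 TPM in ND-Sham livers (log2 fold change -0.86, SE 0.21, adjusted p = 0.00574).

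Genes of growth arrest and cell death were also examined. Of p53 targets and Gadd45 genes, 12 of 17 were higher and 1 lower (median 1.16). Cdkn1a, the cell cycle inhibitor p21, was at 158, 198 and 196 TPM in ND-IRI livers, against 3.08, 16 and 17.6 TPM in ND-Sham livers. ND-Sham 1 was the lowest sham library, and the groups did not overlap (log2 fold change 4.08, SE 0.609, adjusted p = 0.000244). In the BCL2 family, 4 of 15 were higher and 1 lower (median 0.41), no more often than the 30.2% and 16.6% of all genes. The higher ones included the survival genes Bcl2l1, at 125, 148 and 160.1 TPM in ND-IRI livers, against 17.1, 13.2 and 16.6 TPM in ND-Sham livers (log2 fold change 3.13, SE 0.193, adjusted p = 1.03e-06), and Mcl1, at 433, 313 and 408 TPM in ND-IRI livers, against 103, 83.3 and 107 TPM in ND-Sham livers (log2 fold change 1.96, SE 0.16, adjusted p = 4.65e-06), and the death-promoting Bax and Pmaip1. Bad, also death-promoting, was called lower (adjusted p = 0.0485), a call lost without any single library but ND-Sham 2 (0.164 without ND-Sham 1). In the necroptosis and pyroptosis list, 6 of 13 were higher and 1 lower (median 0.39), against 30.2% and 16.6% of all genes. The lower gene, Gsdmd (adjusted p = 0.0299), lost that call without any single library but ND-Sham 3. Mlkl, the pore-forming protein of necroptosis, was at 8.46, 21.4 and 21.2 TPM in ND-IRI livers, against 6.11, 4.35 and 4.32 TPM in ND-Sham livers (log2 fold change 1.51, SE 0.337, adjusted p = 0.00324), and the inflammatory caspase gene Casp4 at 5.84, 5.35 and 5.34 TPM in ND-IRI livers, against 2.05, 1.61 and 1.31 TPM in ND-Sham livers. Casp4 differed by 1.3 on the log2 scale (SE 0.182, adjusted p = 0.000151). Autophagy genes had 3 of 21 higher and 7 lower (median 0.05), against 30.2% and 16.6% of all genes. The receptor Sqstm1 was higher, at 1447, 1133 and 1341 TPM in ND-IRI livers, against 376, 334 and 456 TPM in ND-Sham livers (log2 fold change 1.75, SE 0.137, adjusted p = 3.64e-06), while the receptor Optn was lower, at 43.1, 35 and 40.9 TPM in ND-IRI livers, against 104, 90.0 and 93.9 TPM in ND-Sham livers (log2 fold change -1.26, SE 0.124, adjusted p = 1.6e-05).

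Hypoxia targets and glycolytic genes were higher in 20 of 25 cases and lower in 2 (median 1.5). Slc16a3, the lactate exporter of glycolytic cells, was at 9.53, 10.8 and 13.2 TPM in ND-IRI livers, against 0.36, 0.34 and 0.44 TPM in ND-Sham livers. Slc16a3 differed by 3.13 on the log2 scale (SE 0.166, adjusted p = 4.42e-07). Hk2, a hexokinase low in normal liver, was at 9.33, 6.13 and 7.52 TPM in ND-IRI livers, against 0.81, 0.24 and 0.34 TPM in ND-Sham livers. Hk2 differed by 2.57 on the log2 scale (SE 0.397, adjusted p = 0.000303). Pkm, the pyruvate kinase of other tissues, was at 46.6, 67.8 and 68.1 TPM in ND-IRI livers, against 10.9, 6.47 and 6.25 TPM in ND-Sham livers. Pkm differed by 2.82 on the log2 scale (SE 0.243, adjusted p = 6.53e-06). Bnip3, a hypoxia-induced mitophagy receptor, ran against the list at 202, 96.2 and 103 TPM in ND-IRI livers, against 276, 332 and 382 TPM in ND-Sham livers (log2 fold change -1.37, SE 0.23, adjusted p = 0.000553), and Vegfa, Eno1 and Ldha were not called.

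Ribosome biogenesis genes, which make and process ribosomal RNA in the nucleolus, were higher in 34 of 34 cases (median 1.23). Heatr1, needed for ribosomal RNA transcription, was at 23.4, 38.3 and 42.5 TPM in ND-IRI livers, against 6.47, 5.03 and 4.88 TPM in ND-Sham livers. Heatr1 differed by 2.43 on the log2 scale (SE 0.206, adjusted p = 5.74e-06). Nop58, a core protein of small nucleolar ribonucleoproteins, was at 28, 31.5 and 31.2 TPM in ND-IRI livers, against 4.46, 5.94 and 6.35 TPM in ND-Sham livers. Nop58 differed by 2.26 on the log2 scale (SE 0.156, adjusted p = 1.83e-06). Rrp12, an assembly factor, was at 16.4, 30.2 and 31.8 TPM in ND-IRI livers, against 5.32, 5.32 and 5.54 TPM in ND-Sham livers. Rrp12 differed by 2.03 on the log2 scale (SE 0.216, adjusted p = 2.54e-05). Myc, which drives this programme in many cells, was at 119.9, 32 and 37.8 TPM in ND-IRI livers, against 14.6, 19.1 and 32.4 TPM in ND-Sham livers, with ND-IRI 1 far above the rest and ND-IRI 2 within the sham range. Myc differed by 1.3 on the log2 scale (SE 0.458, adjusted p = 0.0349). Its call was lost without ND-IRI 1 (adjusted p = 0.123), without ND-Sham 1 or 2, under either scaling, with no filter (0.0795) and with the ND groups alone (0.062). The ribosomal proteins themselves had 22 of 78 higher, near the 30.2% of all genes, and 0 lower (median 0.23). That count was 34 without both ND-IRI 1 and ND-Sham 1, 11 without ND-IRI 2, 12 without ND-Sham 2 or ND-Sham 3, and 4 under median-ratio scaling. Of 9 tested cell cycle genes, 5 were higher and 0 lower (median 0.68). The replication helicase gene Mcm4 was at 5.93, 7.27 and 5.27 TPM in ND-IRI livers, against 3.97, 1.66 and 1.86 TPM in ND-Sham livers. Mcm4 differed by 1.08 on the log2 scale (SE 0.244, adjusted p = 0.00348). The count was 8 without both ND-IRI 1 and ND-Sham 1, 3 without ND-IRI 2, ND-IRI 3 or ND-Sham 3, and 2 without ND-Sham 2. The mitotic genes Mki67, Top2a, Cdk1, Ccna2 and Ccnb1 were under the filter.

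**Figure D3:**
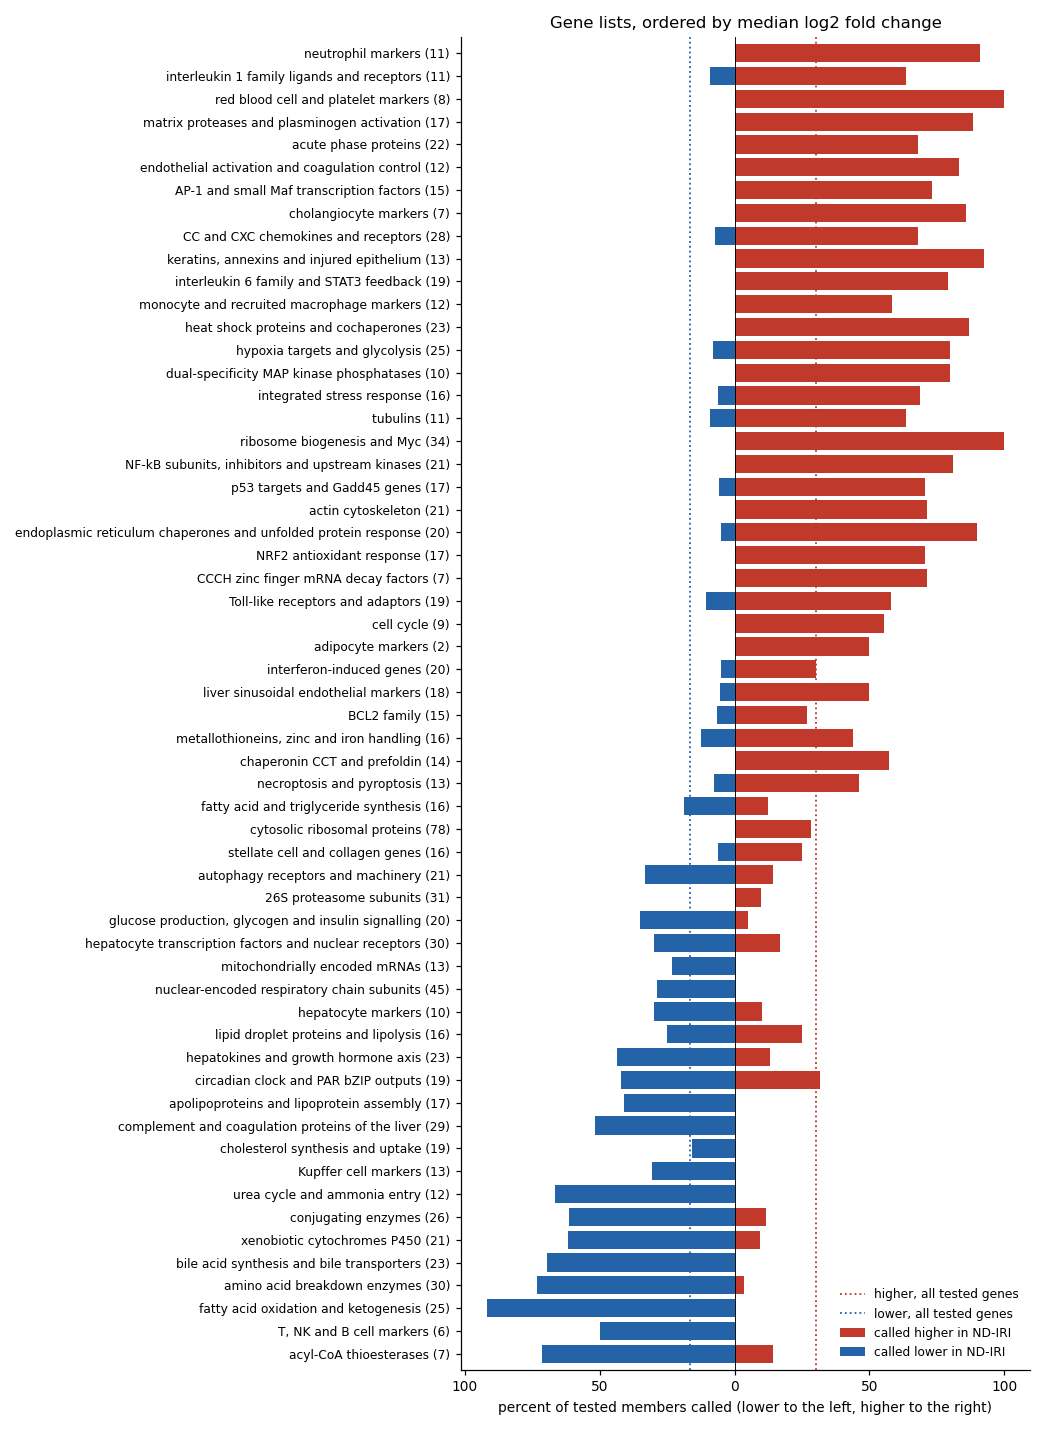
Percent of tested members of each of 58 gene lists called higher (red, right) and lower (blue, left) in ND-IRI livers, ordered by median log2 fold change from highest at the top, with the number tested in parentheses. Dotted lines mark the 30.2% and 16.6% of all tested genes. The NF-kB, chemokine, heat shock and ribosome biogenesis lists pass the right line, and the interferon-induced list falls just short of it. The fatty acid oxidation, amino acid breakdown and bile lists pass the left one.

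Plasma proteins made by hepatocytes split by class. Of 22 acute phase genes, 15 were higher and 0 lower (median 1.85), whereas 15 of 29 complement and coagulation genes were lower and 0 higher (median -0.41). The fibrinogen chain gene Fga was at 9165, 15555 and 11995 TPM in ND-IRI livers, against 3503, 2557 and 3209 TPM in ND-Sham livers. Fga differed by 1.96 on the log2 scale (SE 0.242, adjusted p = 6.6e-05). Saa2, a serum amyloid A gene with close copies, was at 322, 2093 and 1277 TPM in ND-IRI livers, against 123, 16.5 and 13.5 TPM in ND-Sham livers (log2 fold change 4.92, SE 0.8, adjusted p = 0.000432), and Lcn2, an iron-siderophore binder, at 134, 843 and 639 TPM in ND-IRI livers, against 31.8, 8.18 and 6.58 TPM in ND-Sham livers. Lcn2 differed by 4.99 on the log2 scale (SE 0.78, adjusted p = 0.000332). ND-Sham 1 was the highest sham library for both, and ND-IRI 1 was the lowest ND-IRI library for 22 of the 22 members, against 60.9% of all tested genes. Steap4, a metalloreductase, was at 1086, 2616 and 1545 TPM in ND-IRI livers, against 73, 62.4 and 60.6 TPM in ND-Sham livers. Steap4 differed by 4.63 on the log2 scale (SE 0.332, adjusted p = 2.12e-06). Apcs, serum amyloid P, was at 329, 1373 and 927 TPM in ND-IRI livers, against 294, 204 and 153 TPM in ND-Sham livers, where ND-IRI 1 lay close to the sham libraries. Apcs differed by 1.83 on the log2 scale (SE 0.421, adjusted p = 0.00395). Hp, Hpx, Lbp and Cp were among the 7 not called. Klkb1, plasma prekallikrein, was at 58.3, 32.8 and 39.7 TPM in ND-IRI livers, against 125, 108 and 112 TPM in ND-Sham livers (log2 fold change -1.42, SE 0.196, adjusted p = 0.000142), and the clotting factor gene F5 at 119, 97.6 and 103 TPM in ND-IRI livers, against 201, 168 and 225 TPM in ND-Sham livers. F5 differed by -0.88 on the log2 scale (SE 0.119, adjusted p = 0.000124). C3, C4b, F2 and the terminal complement genes were not called. In the hepatocyte marker list 3 of 10 were lower and 1 (Fgb) higher (median -0.24), against 16.6% and 30.2% of all genes. Rbp4, the plasma carrier of retinol, was at 4233, 3466 and 3674 TPM in ND-IRI livers, against 7147, 6746 and 8189.9 TPM in ND-Sham livers. Rbp4 differed by -0.96 on the log2 scale (SE 0.128, adjusted p = 0.000114). The summed level of the list was 157400, 147600 and 130200 TPM in ND-IRI livers, against 141900, 159900 and 156300 TPM in ND-Sham livers, and the groups overlapped.

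Bile acid synthesis and bile transporter genes were lower in 16 of 23 cases and higher in 0 (median -0.79), against 16.6% lower among all genes. The count of 0 holds for the genes listed. Cyp2c70, which makes muricholic acids, also bile acids, was counted with the cytochromes P450 below and was higher (log2 fold change 2.21). Cyp7a1, whose product catalyses the first and limiting step from cholesterol to bile acids, was at 4.15, 2.99 and 5.86 TPM in ND-IRI livers, against 103, 93.8 and 74.6 TPM in ND-Sham livers. Cyp7a1 differed by -4.12 on the log2 scale (SE 0.429, adjusted p = 2.18e-05). Cyp8b1, which sets the share of cholic acid, was at 126, 123 and 194 TPM in ND-IRI livers, against 455, 893 and 950.4 TPM in ND-Sham livers. Cyp8b1 differed by -2.33 on the log2 scale (SE 0.294, adjusted p = 7.77e-05). Slc10a1, the main bile salt uptake transporter, was at 317, 254 and 261 TPM in ND-IRI livers, against 738, 975 and 706 TPM in ND-Sham livers. Slc10a1 differed by -1.53 on the log2 scale (SE 0.156, adjusted p = 1.94e-05). The bile salt export pump gene Abcb11 was at 251, 163 and 178 TPM in ND-IRI livers, against 178, 149 and 172 TPM in ND-Sham livers and was not called. The Abcb11 difference, 0.22 on the log2 scale, did not pass (SE 0.17, adjusted p = 0.303). Among hepatocyte transcription factors and nuclear receptors, 9 of 30 were lower and 5 higher (median -0.11), and 5 were lower without ND-IRI 1 and ND-Sham 1. The shares of all genes were 16.6% lower and 30.2% higher. Nr1i3, the xenobiotic sensor CAR, was at 8.41, 4.13 and 5.71 TPM in ND-IRI livers, against 85.1, 67.1 and 61.4 TPM in ND-Sham livers (log2 fold change -3.38, SE 0.282, adjusted p = 5.21e-06), and Nr1h4, the bile acid receptor FXR, at 68, 41.8 and 50.7 TPM in ND-IRI livers, against 198, 262 and 205 TPM in ND-Sham livers. Nr1h4 differed by -2.05 on the log2 scale (SE 0.242, adjusted p = 4.86e-05). Ppara, which drives fatty acid oxidation genes, was at 24, 28.6 and 39.1 TPM in ND-IRI livers, against 66.9, 55 and 71.8 TPM in ND-Sham livers (log2 fold change -1.07, SE 0.282, adjusted p = 0.00836), not called without ND-IRI 1 and ND-Sham 1 (adjusted p = 0.0542). Hnf4a, a master regulator of hepatocytes, was at 386, 574 and 526 TPM in ND-IRI livers, against 394, 341 and 591 TPM in ND-Sham livers and not called. The Hnf4a difference, 0.18 on the log2 scale, did not pass (SE 0.277, adjusted p = 0.615). Nr4a3, an early-response orphan receptor, was higher, at 8.02, 1.27 and 1.11 TPM in ND-IRI livers, against 0.21, 0.17 and 0.37 TPM in ND-Sham livers (log2 fold change 1.49, SE 0.459, adjusted p = 0.0188), and not called without ND-Sham 2 (adjusted p = 0.0545).

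Drug metabolism genes followed, with 13 of 21 xenobiotic cytochromes P450 lower and 2 higher (median -0.75). Cyp2e1 was at 2719, 2164 and 2531 TPM in ND-IRI livers, against 12298, 10923 and 11677 TPM in ND-Sham livers (log2 fold change -2.24, SE 0.155, adjusted p = 1.83e-06). Cyp2a5, a coumarin hydroxylase with close copies, was at 109, 168 and 283 TPM in ND-IRI livers, against 776, 1130.4 and 785 TPM in ND-Sham livers. Cyp2a5 differed by -2.34 on the log2 scale (SE 0.395, adjusted p = 0.000556). Cyp2c70, which makes muricholic acids in mice, was the largest exception, at 606, 673 and 753 TPM in ND-IRI livers, against 143, 189 and 112 TPM in ND-Sham livers. Cyp2c70 differed by 2.21 on the log2 scale (SE 0.197, adjusted p = 8.05e-06). Conjugating enzymes had 16 of 26 lower and 3 higher (median -0.65). Ugt1a6a, a glucuronosyltransferase that shares exons with its gene cluster, was at 0.85, 1.17 and 1.49 TPM in ND-IRI livers, against 17.2, 10.1 and 7.98 TPM in ND-Sham livers. Ugt1a6a differed by -2.5 on the log2 scale (SE 0.288, adjusted p = 4.19e-05). The estrogen sulfotransferase Sult1e1 was higher, at 3.19, 58.3 and 71.8 TPM in ND-IRI livers, against 0.99, 0.81 and 0.85 TPM in ND-Sham livers, with ND-IRI 1 closest to the sham libraries. Sult1e1 differed by 3.8 on the log2 scale (SE 0.789, adjusted p = 0.00208). Gsta1, a glutathione transferase with close copies, was at 14.6, 65.5 and 98.7 TPM in ND-IRI livers, against 1.39, 5.61 and 4.32 TPM in ND-Sham livers (log2 fold change 3.42, SE 0.651, adjusted p = 0.0012).

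Fatty acid oxidation and ketogenesis had the most uniform fall of the metabolic lists, 23 of 25 lower and 0 higher (median -0.9). The pyruvate dehydrogenase kinase gene Pdk4 was among the exceptions, which were not called. Cyp4a14 and Cyp4a10, omega-hydroxylases of fatty acids that can share reads, were at 234, 112 and 155 TPM and 151, 93.6 and 149.7 TPM in ND-IRI livers, against 2645, 2949.8 and 5458 TPM and 1832, 2225 and 2595 TPM in ND-Sham livers. Both were among the 10 largest falls (Cyp4a14 log2 fold change -4.44, SE 0.353, adjusted p = 3.91e-06; Cyp4a10 log2 fold change -4.08, SE 0.208, adjusted p = 4e-07). Cpt1a, the gate for fatty acid entry into mitochondria, was at 90.9, 99.4 and 98.6 TPM in ND-IRI livers, against 287, 229.8 and 302 TPM in ND-Sham livers. Cpt1a differed by -1.49 on the log2 scale (SE 0.14, adjusted p = 1.2e-05). Acyl-CoA thioesterases split, with 5 of 7 lower and 1 higher (median -1.05). Acot3, a peroxisomal member, was at 3.8, 2.76 and 2.28 TPM in ND-IRI livers, against 28, 43.5 and 38.3 TPM in ND-Sham livers (log2 fold change -3.25, SE 0.25, adjusted p = 3.35e-06), and the mitochondrial Acot2 was higher, at 119, 87.1 and 92.3 TPM in ND-IRI livers, against 13.1, 32.2 and 33.1 TPM in ND-Sham livers. Acot2 differed by 1.98 on the log2 scale (SE 0.357, adjusted p = 0.000859). ND-IRI 1 was the highest ND-IRI library for 19 of the 25 oxidation genes, against 24.4% of all tested genes.

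Lipid storage and synthesis genes were mixed. Of 16 lipid droplet and lipolysis genes, 4 were higher and 4 lower (median -0.25), or 2 lower without ND-IRI 2. Among all genes 30.2% were higher and 16.6% lower, so neither share stands far from the background. Hilpda, a hypoxia-induced inhibitor of lipolysis, was at 349, 241 and 250.1 TPM in ND-IRI livers, against 3.62, 16.9 and 23.7 TPM in ND-Sham livers (log2 fold change 4.45, SE 0.699, adjusted p = 0.000343), and the droplet coat protein Plin2 at 1867, 2994 and 2521 TPM in ND-IRI livers, against 409, 709.9 and 666 TPM in ND-Sham livers. Plin2 differed by 2.06 on the log2 scale (SE 0.279, adjusted p = 0.000124). G0s2, also an inhibitor of lipolysis, was lower, at 155, 162 and 160.2 TPM in ND-IRI livers, against 764, 347 and 361 TPM in ND-Sham livers. G0s2 differed by -1.52 on the log2 scale (SE 0.297, adjusted p = 0.00142). Fatty acid and triglyceride synthesis had 2 of 16 higher and 3 lower (median 0.24), the lower share near that of all genes, or 5 lower without ND-IRI 1. Acacb, which makes the malonyl-CoA that restrains Cpt1a, was at 34.7, 23.5 and 26.8 TPM in ND-IRI livers, against 8.74, 16.6 and 11.4 TPM in ND-Sham livers. Acacb differed by 1.17 on the log2 scale (SE 0.255, adjusted p = 0.00278). Lpin1, a phosphatidate phosphatase, was at 69.8, 7.52 and 10.4 TPM in ND-IRI livers, against 21.4, 94.3 and 78.1 TPM in ND-Sham livers and not called (log2 fold change -1.54, SE 0.822, adjusted p = 0.145), and was called lower without ND-IRI 1 (log2 fold change -2.49, adjusted p = 0.014). Cholesterol synthesis and uptake had 3 of 19 lower and 0 higher (median -0.42), about the 16.6% of all genes, or 1 lower without ND-IRI 3 and 5 without ND-Sham 3. Fdft1, the squalene synthase, and Stard4, a sterol transfer protein, were among those lower. Apolipoprotein and lipoprotein assembly genes had 7 of 17 lower and 0 higher (median -0.41), with Apoc4, a small apolipoprotein gene, at 230.0, 249 and 246 TPM in ND-IRI livers, against 431, 391 and 395 TPM in ND-Sham livers (log2 fold change -0.74, SE 0.109, adjusted p = 0.000211).

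**Figure D4:**
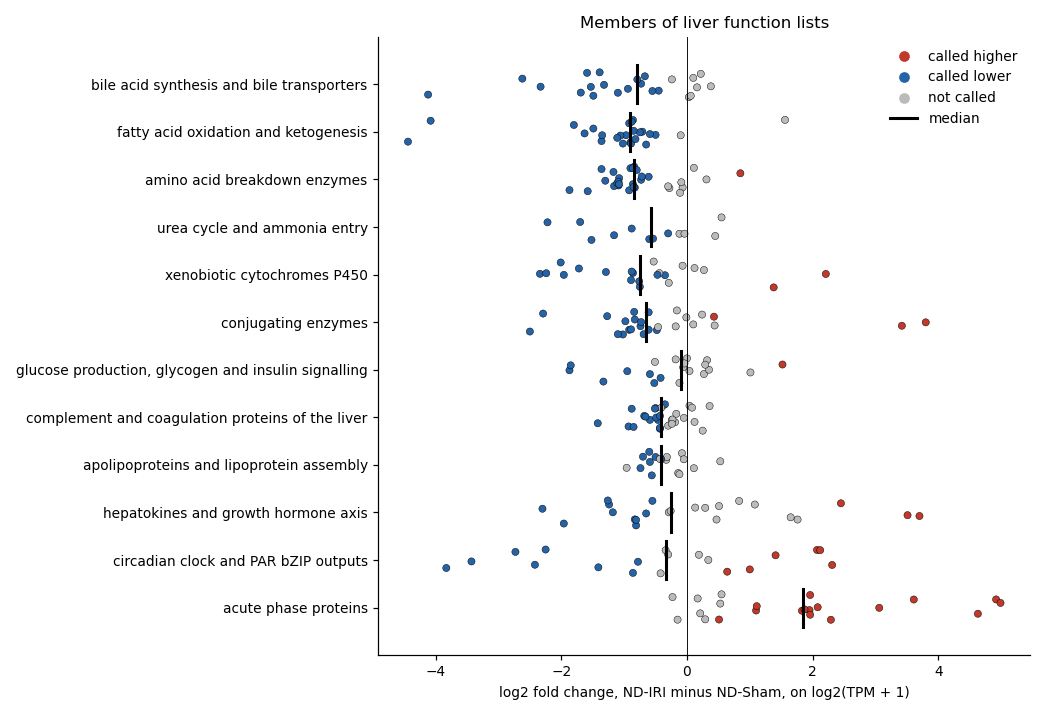
Log2 fold change (ND-IRI minus ND-Sham, on log2(TPM + 1)) of each tested member of 12 liver function lists, coloured by call, with the list median as a black bar and points spread vertically for view only. The fatty acid oxidation members lie left of 0 except for 1 uncalled gene, the clock members lie on both sides, and the acute phase median is 1.85.

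Transcripts for nitrogen disposal were lower at several steps. Amino acid breakdown had 22 of 30 genes lower and 1 higher (median -0.85). Bhmt, which remethylates homocysteine, was at 597, 721 and 715 TPM in ND-IRI livers, against 2127, 3385 and 2074 TPM in ND-Sham livers (log2 fold change -1.87, SE 0.293, adjusted p = 0.000342), and Prodh, which opens proline breakdown, at 30.2, 21.4 and 22.6 TPM in ND-IRI livers, against 85.8, 82.7 and 60.2 TPM in ND-Sham livers. Prodh differed by -1.58 on the log2 scale (SE 0.218, adjusted p = 0.000138). Of 12 urea cycle and ammonia entry genes, 8 were lower and 0 higher (median -0.57). Asl, argininosuccinate lyase, was at 349, 267 and 251 TPM in ND-IRI livers, against 649, 907 and 939 TPM in ND-Sham livers (log2 fold change -1.52, SE 0.244, adjusted p = 0.000402), and Oat, ornithine aminotransferase, at 351, 456 and 554 TPM in ND-IRI livers, against 2776, 1689 and 1912 TPM in ND-Sham livers. Oat differed by -2.22 on the log2 scale (SE 0.204, adjusted p = 1.01e-05). Cps1 and Ass1, the entry enzymes of the cycle, were at 1625, 942 and 891 TPM and 2648, 1804 and 1815 TPM in ND-IRI livers, against 1713, 2019 and 2462 TPM and 3079.9, 2913 and 3375 TPM in ND-Sham livers (adjusted p = 0.0205 and 0.0453). Both calls were lost without ND-IRI 2, ND-IRI 3, ND-Sham 2 or ND-Sham 3, and that of Ass1 also without ND-Sham 1. The list count was 4 without ND-IRI 2, ND-Sham 2 or ND-Sham 3, and 5 without ND-IRI 3 or ND-Sham 1. Glucose production, glycogen and insulin signalling genes had 7 of 20 lower and 1 higher (median -0.09), against 16.6% and 30.2% of all genes. Slc2a2, the hepatocyte glucose transporter, was at 68.5, 36.5 and 41.2 TPM in ND-IRI livers, against 183, 199 and 144 TPM in ND-Sham livers (log2 fold change -1.87, SE 0.227, adjusted p = 5.98e-05), and the glycogen synthase Gys2 at 157, 66.1 and 59.1 TPM in ND-IRI livers, against 288, 308 and 331 TPM in ND-Sham livers. Gys2 differed by -1.85 on the log2 scale (SE 0.299, adjusted p = 0.000419). Pck1 and G6pc, the first and last committed enzymes of glucose production, were at 2973, 1966 and 1819 TPM and 479, 249.8 and 219 TPM in ND-IRI livers, against 4846, 3188 and 5005 TPM and 483, 1121 and 769 TPM in ND-Sham livers (adjusted p = 0.0216 and 0.0294). Both calls were lost without ND-IRI 2, ND-IRI 3 or ND-Sham 3, that of Pck1 also without ND-Sham 1 and that of G6pc also without ND-Sham 2. The list count was 3 without ND-Sham 3 and 4 without ND-IRI 2 or ND-IRI 3.

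Hepatokine and growth hormone axis genes had 10 of 23 lower and 3 higher (median -0.26), against 16.6% and 30.2% of all genes, and 5 higher without ND-Sham 1. The 3 were the activin subunit genes Inhba and Inhbb and the activin-binding protein Fst. Inhbb was at 55.4, 47.6 and 41.2 TPM in ND-IRI livers, against 0.76, 4.49 and 4.48 TPM in ND-Sham livers (log2 fold change 3.7, SE 0.392, adjusted p = 2.47e-05). Fst was at 170.0, 27.6 and 17.9 TPM in ND-IRI livers, against 2.77, 2.01 and 4.55 TPM in ND-Sham livers, with ND-IRI 1 far above the other libraries. Fst differed by 3.51 on the log2 scale (SE 0.672, adjusted p = 0.00125). Growth hormone receptor (Ghr) was at 89.3, 63.4 and 73.1 TPM in ND-IRI livers, against 135, 144 and 117 TPM in ND-Sham livers (log2 fold change -0.81, SE 0.131, adjusted p = 0.000416), and its target Igf1 at 91.5, 115 and 126 TPM in ND-IRI livers, against 175, 161 and 184 TPM in ND-Sham livers. Igf1 differed by -0.65 on the log2 scale (SE 0.155, adjusted p = 0.0048). Gdf15 and Igfbp1, secreted proteins induced by stress and fasting, were not called, and ND-Sham 1 stood apart in both. Gdf15 was at 167, 90.9 and 67 TPM in ND-IRI livers, against 4.62, 52.8 and 87.6 TPM in ND-Sham livers (log2 fold change 1.76, SE 0.747, adjusted p = 0.071), and was called higher without ND-Sham 3 (adjusted p = 0.0139). Igfbp1 was at 3739, 1939.7 and 1276 TPM in ND-IRI livers, against 82.4, 1604 and 2255 TPM in ND-Sham livers (log2 fold change 1.65, SE 0.959, adjusted p = 0.179).

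Differences of respiratory chain genes were small. Of 45 nuclear-encoded subunits, 13 were lower and 0 higher (median -0.21), against 16.6% lower among all genes. Under median-ratio scaling 23 were lower, with quantile normalization 20, without ND-IRI 3 6 and without ND-Sham 2 8. Ndufs7, a complex I subunit, was at 53.2, 56.5 and 50.8 TPM in ND-IRI livers, against 90.2, 76.8 and 83.7 TPM in ND-Sham livers. Ndufs7 differed by -0.63 on the log2 scale (SE 0.112, adjusted p = 0.00076). Of 13 mRNAs encoded by mitochondrial DNA, 3 were lower and 0 higher (median -0.12), against 16.6% lower among all genes. The largest difference was that of mt-Nd6, which lies on the other strand from the rest, at 1269.5, 1400.1 and 1352 TPM in ND-IRI livers, against 3732, 4461 and 3815 TPM in ND-Sham livers. mt-Nd6 differed by -1.57 on the log2 scale (SE 0.208, adjusted p = 0.000105). The libraries are strand-specific per the labels, but how the authors counted strand is not given, so reads of overlapping mitochondrial genes may be mixed.

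Circadian clock genes moved both ways, 8 of 19 lower and 6 higher (median -0.34), against 16.6% and 30.2% of all genes. The output factors Dbp, Tef and Hlf, which bind D-box sites, were lower. Dbp was at 10.4, 2.09 and 2.29 TPM in ND-IRI livers, against 112, 60.3 and 47.2 TPM in ND-Sham livers (log2 fold change -3.83, SE 0.568, adjusted p = 0.000233), Tef at 16.6, 9.01 and 11.9 TPM in ND-IRI livers, against 95.5, 59.7 and 58.7 TPM in ND-Sham livers (log2 fold change -2.42, SE 0.276, adjusted p = 3.87e-05) and Hlf at 3.44, 2.92 and 3.33 TPM in ND-IRI livers, against 31.7, 26.6 and 23.5 TPM in ND-Sham livers. Hlf differed by -2.73 on the log2 scale (SE 0.192, adjusted p = 1.95e-06). Their repressor Nfil3 was higher, at 220.5, 146 and 140.1 TPM in ND-IRI livers, against 18, 37.6 and 50.5 TPM in ND-Sham livers. Nfil3 differed by 2.31 on the log2 scale (SE 0.318, adjusted p = 0.000138). The clock activator Arntl (BMAL1) was at 6.64, 7.57 and 7.88 TPM in ND-IRI livers, against 1.1, 0.54 and 1.41 TPM in ND-Sham livers (log2 fold change 2.07, SE 0.254, adjusted p = 6.3e-05), and its partner Npas2 at 2.11, 2.5 and 1.87 TPM in ND-IRI livers, against 0.18, 0.13 and 0.24 TPM in ND-Sham livers. Npas2 differed by 1.41 on the log2 scale (SE 0.166, adjusted p = 4.66e-05). Of the repressors, Per2 and Per3 were lower, with Per2 at 3.92, 4.03 and 4.74 TPM in ND-IRI livers, against 18.2, 12.9 and 8.95 TPM in ND-Sham livers (log2 fold change -1.41, SE 0.223, adjusted p = 0.000367), and Per1 was not called (log2 fold change -0.34, SE 0.189, adjusted p = 0.165). Per1 was called lower without ND-IRI 1 (adjusted p = 0.0431) and under quantile normalization (log2 fold change -0.56, adjusted p = 0.0348). Cry1 was higher, at 19.3, 19.2 and 27 TPM in ND-IRI livers, against 4.75, 3.18 and 4.82 TPM in ND-Sham livers. Cry1 differed by 2.12 on the log2 scale (SE 0.263, adjusted p = 6.79e-05). Ciart, another repressor, was lower, at 7.22, 3.59 and 4.84 TPM in ND-IRI livers, against 54.1, 79.3 and 61.3 TPM in ND-Sham livers. Ciart differed by -3.43 on the log2 scale (SE 0.36, adjusted p = 2.31e-05). Nr1d1, which represses Arntl, was at 255, 31.3 and 34.3 TPM in ND-IRI livers, against 104, 48.5 and 103 TPM in ND-Sham livers and not called, with ND-IRI 1 above all other libraries (log2 fold change -0.3, SE 0.658, adjusted p = 0.734), and was called lower without that library (log2 fold change -1.27, adjusted p = 0.0213). The labels used here give no time of day for the operations.

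Arntl with Clock or Npas2 binds the E-box CACGTG, which reads the same on both strands and which 6.86% of genes with a window hold. The share was 10% among tested genes with a window, 10.6% among those called higher and 9.93% among those called lower. Windows were at hand for 16 of 20 list genes. Among these, 5 hold it: Per1, Cry1, Tef, Bhlhe41 and Ciart, of which Cry1 was higher, Tef and Ciart lower and Per1 and Bhlhe41 not called. Ciart and Cry1 are shown because they moved in opposite directions, with E-boxes in capitals. The Ciart window has 3, from 116, 58 and 44 bases before the start, and the Cry1 window 1, from 60 bases before.
Ciart, chr3:95882229-95882378, minus strand: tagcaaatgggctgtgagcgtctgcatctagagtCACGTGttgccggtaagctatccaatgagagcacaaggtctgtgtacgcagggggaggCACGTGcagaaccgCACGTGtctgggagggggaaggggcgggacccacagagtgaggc
Cry1, chr10:85185055-85185204, minus strand: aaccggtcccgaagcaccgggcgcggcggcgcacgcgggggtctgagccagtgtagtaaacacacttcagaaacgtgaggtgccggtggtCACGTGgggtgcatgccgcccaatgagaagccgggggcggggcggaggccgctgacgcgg
The 1 list gene with a D-box (TTATGTAA or its reverse complement, held by 0.977% of genes) in its window was Per3, which was lower, at 1.18, 0.43 and 0.54 TPM in ND-IRI livers, against 14.7, 5.6 and 3.97 TPM in ND-Sham livers (log2 fold change -2.25, SE 0.4, adjusted p = 0.000799).

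**Figure D5:**
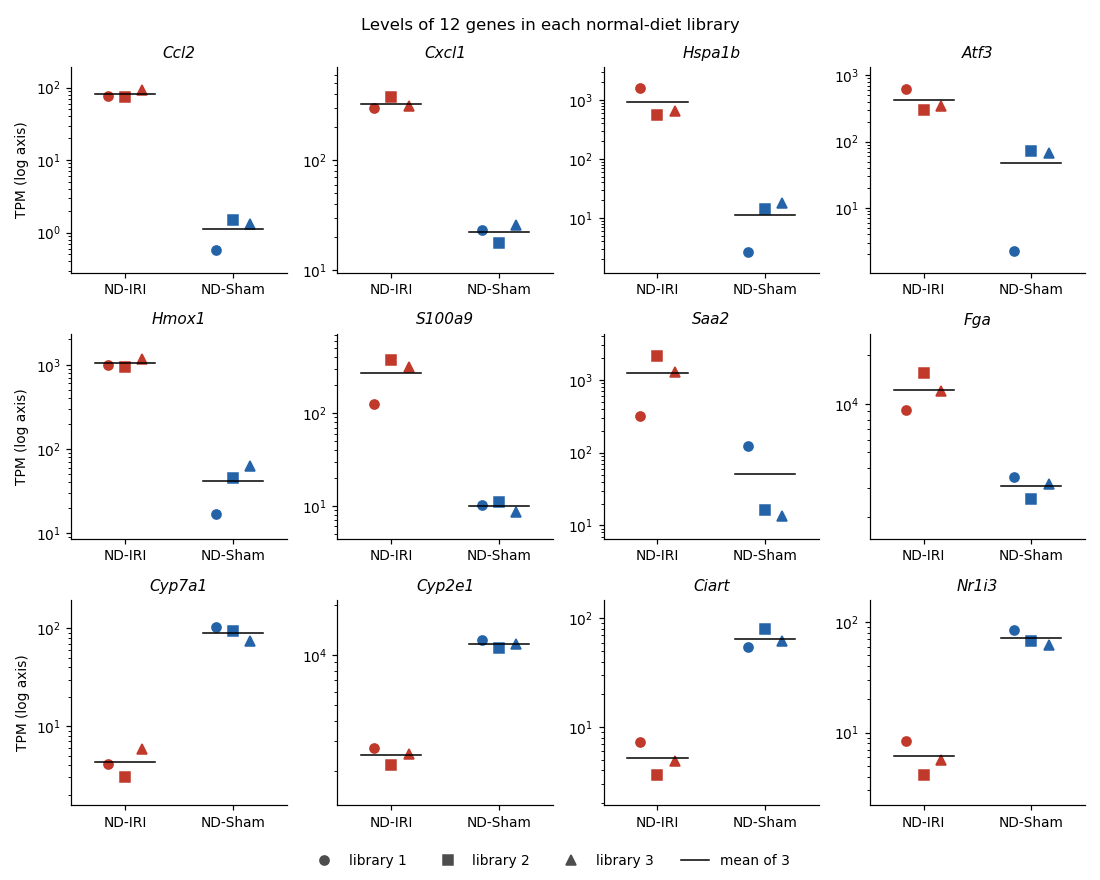
Level (TPM, log axes) of 12 genes in each ND-IRI (red, left) and ND-Sham (blue, right) library, with the library number by symbol and the mean of 3 as a line. All 12 genes separate the groups. ND-Sham 1 lies below the other sham libraries for Atf3 (2.25 TPM) and above them for Saa2 (123 TPM), and ND-IRI 1 is the highest ND-IRI library for Hspa1b (1615 TPM) and the lowest for S100a9 (126 TPM).

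The remaining genes of the largest changes were Cyp4a32, Upp2 and Usp2, all lower. Usp2, a deubiquitinase with rhythmic expression in liver, was at 1.85, 1.53 and 1.81 TPM in ND-IRI livers, against 33.1, 20.9 and 14.8 TPM in ND-Sham livers. Usp2 differed by -3.06 on the log2 scale (SE 0.269, adjusted p = 7.52e-06). Upp2, which breaks down uridine, was at 29, 13.3 and 11.2 TPM in ND-IRI livers, against 162, 267 and 205 TPM in ND-Sham livers (log2 fold change -3.58, SE 0.414, adjusted p = 4.24e-05).

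Whether the injury response depended on diet was tested as the ND difference minus the HFD difference. Of 13364 genes, 13 (0.0973%) were called, and 1345 had an unadjusted p under 0.05. That count was 335 without ND-IRI 1 and ND-Sham 1 and between 2 and 89 with 1 normal-diet library left out, so it depends on single libraries. The Cyp4a10 fall was far smaller on the high-fat diet, with means of 132 TPM in ND-IRI and 2218 TPM in ND-Sham livers, and of 1311 TPM in HFD-IRI and 1746 TPM in HFD-Sham livers (difference of log2 fold changes -3.69, SE 0.294, adjusted p = 0.000379). Cyp2e1 had means of 2471 TPM in ND-IRI and 11630 TPM in ND-Sham livers, and of 8823 TPM in HFD-IRI and 14170 TPM in HFD-Sham livers (difference -1.56, SE 0.219, adjusted p = 0.0219). The Cyp4a10 difference was called in each of the 6 cases with 1 normal-diet library left out (largest adjusted p = 0.00353), and that of Cyp2e1 was lost without ND-IRI 2, ND-IRI 3, ND-Sham 2 or ND-Sham 3 (largest 0.079). Of the 1073 tested list members, Cyp4a10, Cyp4a14 and Cyp2e1 were called for this difference.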

How the data were processed

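Expression values were TPM per gene, deposited by the authors as a table of 12 liver libraries. The genome build was GRCm39 (mm39), per the submitters' processing notes, and the aligner, the counter and the use of strand are not given in the sources used here. Fractional TPM hold no read counts, so depth is unknown. Groups were taken from the sample labels. Of the table, 2 entries without a gene name were left out and 18 repeated symbols were kept as separate entries. A second sheet, with 23 columns of per-sample values for 6 genes that no label matches, was not used.

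Values were transformed to log2(TPM + 1). The filter kept genes reaching 1 TPM in 3 or more libraries, which were fitted with limma 3.58.1 in R 4.3.3, with 1 mean per group over all 4 groups and a variance trend with level. ND-IRI minus ND-Sham, and that difference minus its HFD counterpart, were tested two-sided with Benjamini-Hochberg adjustment over 13364 genes at 0.05. The fit was checked on simulated data with known changes. The 58 gene lists and the markers were chosen with earlier results of these data known. Named genes were the 10 largest rises and falls whose higher group averaged 5 TPM or more and whose groups did not overlap, the 3 largest changes of each list with the largest against its direction, and 5 checks; 47 more genes were chosen after their values were seen. Genes with close copies may share reads, since the treatment of such reads is not given. Alternatives were another pseudocount (0.1), no filter or one at 5 TPM, median-ratio and quantile scaling, the ND groups alone, no variance trend, a replicate block, each ND library left out, ND-IRI 1 and ND-Sham 1 left out together, and a fold threshold. A few list members are not reported here. Promoter windows came from RefSeq (GRCm38.p6). Same-numbered libraries did not deviate together, so the numbers were not treated as pairs.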

Additional observations from a re-analysis of the deposited data

Results flagged for a closer look

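The IRI effect on the normal diet differed from that on the high-fat diet for 13 genes, by limma's test of the difference between the log2 fold changes (ND minus HFD, on log2(TPM + 1), adjusted over all tested genes). The Cyp4a10 value was -3.69 (adjusted p = 0.000379). For Cyp4a14, also an omega-hydroxylase, the difference was -3.63 (SE 0.499, adjusted p = 0.0219), with means of 167 TPM in ND-IRI and 3684 TPM in ND-Sham livers, and of 1895 TPM in HFD-IRI and 3532 TPM in HFD-Sham livers. The value for Cyp2e1 was -1.56, and that for Cyp2c38, another cytochrome P450 with close copies, -1.35 (adjusted p = 0.0245). Hsd17b10, a mitochondrial dehydrogenase, differed by -1.19 (adjusted p = 0.0404), with 183 TPM in ND-IRI and 447 TPM in ND-Sham livers, and 404 TPM in HFD-IRI and 427 TPM in HFD-Sham livers.

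In some of these genes the sham means lay apart between the diets, a difference that was not tested. Serpina7, thyroxine-binding globulin, had a difference of 3.01 (SE 0.396, adjusted p = 0.0166), with means of 194 TPM in ND-IRI, 27.0 TPM in ND-Sham, 158 TPM in HFD-IRI and 182 TPM in HFD-Sham livers. Cux2, a transcription factor known for higher levels in female than male mouse liver, differed by -2.38 (adjusted p = 0.0166), with 0.0867 TPM in ND-IRI, 5.83 TPM in ND-Sham, 0.0767 TPM in HFD-IRI and 0.237 TPM in HFD-Sham livers. Osbpl3, an oxysterol-binding protein gene, differed by 2.62 (adjusted p = 0.0404), with 1.08 TPM in ND-IRI, 1.21 TPM in ND-Sham, 2.71 TPM in HFD-IRI and 25.6 TPM in HFD-Sham livers. The difference was 2.19 for the collagen gene Col27a1 (adjusted p = 0.0166), 1.06 for the cytochrome b5 gene Cyb5b (0.0394), 1.98 for Tmem171 (0.0394) and 3.50 for Nat8f5 (0.0394). Lce1d, a late cornified envelope gene, was listed at 0 in the 3 ND-Sham libraries and averaged 3.46 TPM in ND-IRI livers, against 0.0467 TPM in HFD-IRI and 0.0533 TPM in HFD-Sham livers (difference 2.16, adjusted p = 0.0024). With each of the 6 normal-diet libraries left out in turn, the Cyp4a10 and Lce1d differences were called in 6 of 6 cases, those of Cux2 and Serpina7 in 4, those of Cyp4a14 and Col27a1 in 3, those of Cyp2e1, Cyp2c38 and Nat8f5 in 2, and those of Cyb5b, Hsd17b10, Osbpl3 and Tmem171 in 1.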

How the results depend on the processing

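The counts of higher and lower genes (4035 and 2213) stayed within 1.5 times under each alternative run, except that quantile normalization called 3860 lower and a log2 fold change of at least 1 left 1827 higher and 696 lower. With 1 normal-diet library left out they lay between 3049 and 4608 higher and between 1791 and 2064 lower. The count of differences between the diets (13) was 25 with a pseudocount of 0.1, 21 with no filter, 21 with quantile normalization, 2 to 89 with 1 library left out and 335 without ND-IRI 1 and ND-Sham 1. The cause was not tested. With the replicate number as a block, 3792 genes were higher, 2087 lower and 9 differed between the diets. Among genes the text names, the block called Nqo1 lower (adjusted p = 0.0415) and ended the calls of Bad (0.0665), Myc (0.0553), Ccne1 (0.0553) and Gsdmd (0.0525). The deviations of same-numbered libraries correlated at -0.188, -0.0904 and -0.0399, and the labels give no pairing. Among the genes named, none that was called changed sign. Of those not called, with 1 library left out, the log2 fold change of Alb lay between -0.18 and 0.05, the log2 fold change of Cfd between -2.19 and 0.29, that of Cyb5b between -0.09 and 0.02 and that of Nr1d1 between -1.27 and 0.22 (0.16 without ND-IRI 3). Hnf4a was at -0.02 under median-ratio scaling, Cfd at 0.70 without both ND-IRI 1 and ND-Sham 1, and Apoc2 at 0.53 and Igfbp1 at -0.27 without both. Because TPM keep no depth, genes near the filter of 1 TPM are the least certain.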
